A study of Mus musculus with 15 samples.

Results

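Type 2 innate lymphoid cells (ILC2s) of the gut lamina propria (LP) were compared with ILC2 precursors (ILC2p) of the bone marrow (BM), all of WT genotype. The members are the 4 WT LP ILC2 libraries and the 4 WT BM ILC2p libraries, chosen by the labels of cell type and genotype, which makes 8 of the 15 RNA-seq libraries of the series. All mice were C57BL/6. LP ILC2s were sorted as CD45+Lin-CD127+Sca-1+CD25+KLRG1+ cells of mice aged 8 to 12 weeks with floxed *Tgfbr2* and ER-Cre (Tgfbr2 f/f ER-Cre+), which had received sunflower oil for 5 days, with 2 libraries in each of 2 experiments. ILC2p were sorted as CD45.2+Lin-CD127+α4β7+CD25+ cells from Control/45.1 mixed chimeras, in which marrow of such oil-treated donors and CD45.1 marrow had been placed at equal ratios in lethally irradiated CD45.1 hosts 6 weeks earlier, again with 2 libraries in each of 2 other experiments. For the experiment 1 ILC2p samples, WT and Tgfbr2-/-, the library numbers in the titles differ from those in the deposited files, and each file was assigned to the sample under which it was deposited. In both tissues the WT cells thus carried floxed *Tgfbr2* and a Cre recombinase that acts only after tamoxifen, which they did not receive. The 7 Tgfbr2-/- libraries (3 of LP ILC2s and 4 of BM ILC2p, from tamoxifen-treated donors) were used only where they are named.

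Each tissue had its own sequencing runs, the ILC2p came from irradiated chimeras and the LP ILC2s did not, and LP tissue was digested with enzymes while marrow was flushed and depleted of lineage-positive cells. Tissue, run, chimera status and cell isolation cannot be told apart in these libraries. In bulk RNA, fewer cells of a type and less RNA per cell cannot be told apart either. The sources used here do not say whether libraries of 1 group came from separate mice, so p-values measure the spread between these libraries.

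ILC2s lack antigen receptors and respond to tissue signals. The alarmin IL-33 acts through ST2, the product of *Il1rl1*, IL-25 acts through *Il17rb*, and the neuropeptide neuromedin U acts through *Nmur1*. Activated ILC2s secrete type 2 cytokines such as IL-5, IL-13 and IL-4 and the tissue repair factor amphiregulin. They arise from committed precursors in the marrow under transcription factors that include GATA3 and RORα, enter tissues early in life and remain there as resident cells. KLRG1 marks mature ILC2s, whereas the integrin α4β7 is carried by marrow precursors.

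LP ILC2 libraries held 12997489 to 22350339 counts on genes (median 18403655) and BM ILC2p libraries 12276824 to 35961215 (median 24959424). Levels are given as CPM, the count of a gene scaled to the size of its library with TMM factors, always in the order experiment 1 replicates 1 and 2, then experiment 2 replicates 1 and 2. Although the median total was larger in ILC2p, the entries of the annotation with a count ranged lower there (9863 to 12632, of 24690). In LP ILC2s they numbered 12345 to 13592, and the ranges overlapped. Transcripts that dropped out were counted as genes under 1 CPM in 1 library while the median of the other 3 libraries of the tissue was 50 CPM or more. Their share was 13.7%, 2.00%, 1.34% and 0.525% in the ILC2p libraries and 0.162%, 0.0543%, 0% and 0.0804% in the LP ILC2 libraries. The highest share, 525 of 3823 genes, was in ILC2p replicate 1 of experiment 1. *Tgfbr2* itself was one of them, at 0.751, 245, 112 and 196 CPM in ILC2p against 178, 274, 159 and 219 CPM in LP ILC2s. Taken alone, that lowest value does not bear out the WT label of its library. The neutrophil genes given below summed to 994 CPM in this library. In the Tgfbr2-/- ILC2p libraries, scaled separately, they summed to 85198 to 101445 CPM. Dropout was spread over low and middle levels, with 18% of gene and library pairs at 20 to 50 CPM, 7.45% at 50 to 100 CPM, 2.00% at 100 to 200 CPM and 0.0477% at 200 to 500 CPM in ILC2p. In LP ILC2s the share was 2.30% at 20 to 50 CPM, 0.109% at 50 to 100 CPM, 0% at 100 to 200 CPM and 0.135% (3 of 2226 pairs) at 200 to 500 CPM. A gene that is absent from 1 ILC2p library and present in the others is therefore not taken here to be absent from the cells.

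**Figure D1:**
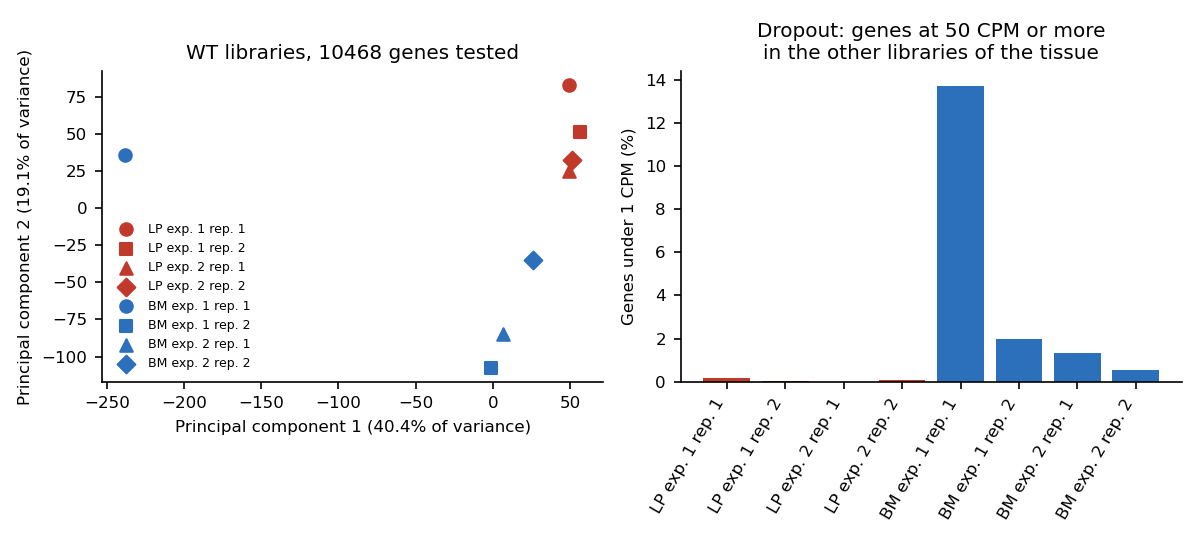
Left, the 8 WT libraries on the first 2 principal components of log2(CPM + 1) over the genes tested, with LP ILC2s in red and BM ILC2p in blue and 1 marker shape for each experiment and replicate. ILC2p replicate 1 of experiment 1 lies apart on the first component (40.4% of the variance) and the tissues separate on the second (19.1%) among the other 7. Right, the share of genes under 1 CPM in each library among genes at 50 CPM or more by the median of the other libraries of the tissue, highest (13.7%) in the same ILC2p library.

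The LP ILC2 libraries resembled each other more than the ILC2p libraries did. Spearman's rho across the genes tested was 0.795 to 0.919 for the 6 pairs of LP ILC2 libraries, 0.593 to 0.754 for the 6 pairs of ILC2p libraries and 0.540 to 0.804 for the 16 pairs across tissues. Genes are not independent replicates, so no p is given. Besides the ILC2p library with dropout, LP replicate 2 of experiment 2 stood apart by genes of macrophages, epithelium and stroma, given with the other cell types below. Both libraries are included unless stated.

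Over the 10468 genes tested with edgeR's quasi-likelihood test, 191 were higher in LP ILC2s (1.82% of the genes tested) and 77 were higher in BM ILC2p (0.736%), together 2.56%, at a Benjamini-Hochberg adjusted p under 0.1 and a fold change over 1.5. A log2 fold change above 0 means higher in LP ILC2s, and its median over all genes tested was -0.09. Another 715 genes had an unadjusted p under 0.05 without being called. Of the 191 genes higher in LP ILC2s, 53 had 0 counts in all 4 ILC2p libraries and 75 were at 1 CPM or more in all of them. Of the 77 genes higher in BM ILC2p, 17 had 0 counts in all 4 LP ILC2 libraries and 46 were at 1 CPM or more in all of them. The groups did not overlap for 190 and 77 of these genes, against 6.43% and 3.98% of all genes tested in the respective direction, and *Gkn3* was the exception. With 4 libraries in each group the exact permutation test over the 70 arrangements can go no lower than p = 0.0286, the value for every gene whose groups did not overlap. Leaving out both libraries that stand apart gave 162 and 42 calls, of which 116 and 31 were among the first. Each LP ILC2 library left out in turn gave 68, 68, 68 and 87 calls higher in LP ILC2s (35, 30, 27 and 30 higher in BM ILC2p), and each ILC2p library left out gave 275, 110, 108 and 244 (95, 32, 39 and 71).  With 1 experiment of each tissue, 2 libraries against 2, the counts ranged from 1 to 80 and from 0 to 16.

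**Figure D2:**
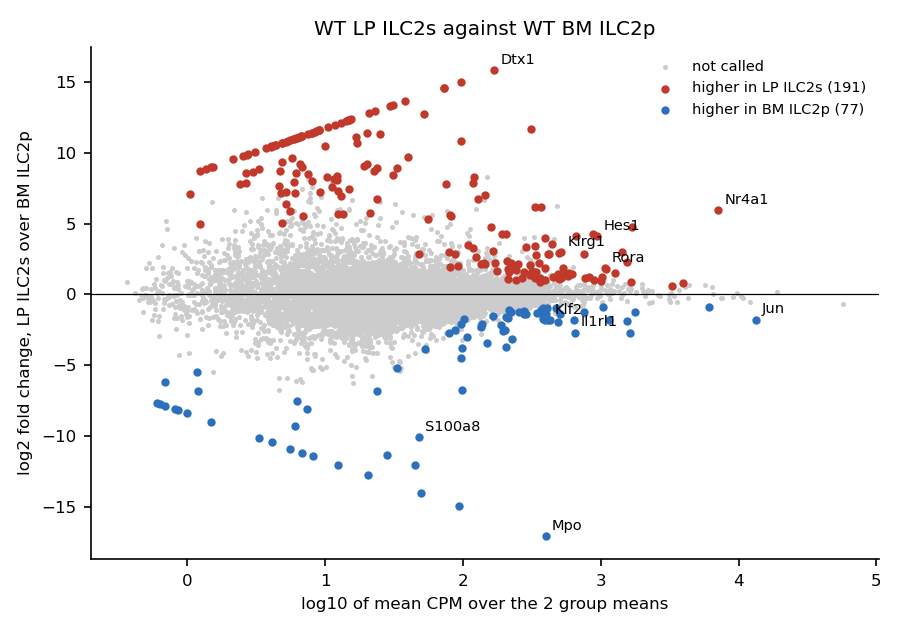
Each point is 1 of the genes tested, with the log10 of the mean CPM of the 2 groups on the x axis and the log2 fold change of LP ILC2s over BM ILC2p on the y axis. The 191 genes called higher in LP ILC2s are red and the 77 called higher in BM ILC2p are blue. The rows of points that run outwards at low levels are genes with 0 counts in the group where they are lower, whose log2 fold change is set by the prior count and is no measure of size.

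The labels were first checked against the genes behind the sorting gates, which are no finding between groups because the gates chose them. *Klrg1*, an inhibitory receptor in the LP gate only (chromosome 6, 122220614 to 122232900 of NCBIM37, which is mm9), was at 867, 875, 1042 and 885 CPM in LP ILC2s and 80.4, 99.4, 182 and 107 CPM in BM ILC2p. Every LP library was above every ILC2p library. *Ly6a*, which encodes Sca-1, was lower in LP ILC2s, at 251, 304, 341 and 379 CPM against 645, 654, 576 and 628 CPM (adjusted p = 0.0425), although Sca-1 was in the LP gate. Its call was lost in 4 of the 8 fits that left out 1 library (adjusted p up to 0.143). *Itga4* and *Itgb7*, the chains of α4β7, were not called (log2 fold changes -1.07 and 0.23), nor were *Ptprc* (0.39), *Il7r* (-0.74) and *Il2ra* (-0.70). Of the ILC2 markers, *Gata3*, the master transcription factor of the lineage, was at 3098, 3748, 4630 and 4964 CPM in LP ILC2s and 4979, 2836, 3140 and 2428 CPM in BM ILC2p, and the groups overlapped (log2 fold change 0.30, standard error 0.25, adjusted p = 0.854). All 8 libraries thus held abundant *Gata3*, as the labelled cell type would. The costimulatory receptor *Icos* was at 321, 269, 285 and 300.2 CPM and 452, 295, 442 and 287 CPM. The ILC2 markers *Il1rl1*, *Rora*, *Il17rb*, *Il5* and *Il13* are given with their groups, and *Il5* and *Il13* were absent or low in ILC2p.

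*Il1rl1*, the receptor for IL-33, was lower in LP ILC2s in every library. Its position in NCBIM37 is chromosome 1, 40486415 to 40522260, plus strand. It was at 73.9, 169.9, 233 and 213 CPM in LP ILC2s and at 992, 1147, 1093 and 1268 CPM in BM ILC2p. The 4 ILC2p libraries lay within a narrow range, and the highest LP library was far below the lowest of them. The level was 6.53-fold lower in LP ILC2s (log2 fold change -2.71, standard error 0.34, adjusted p = 0.00424), and it was called in all 8 fits that left out 1 library. *Il1rap*, the partner chain that ST2 needs to signal, was at 7.27, 7.35, 12.6 and 28.9 CPM and 69.6, 8.86, 31.5 and 3.97 CPM, with overlapping groups (adjusted p = 0.919).

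A few other receptors for activating signals, *Il17rb*, *Nmur1* and *Il9r*, were higher in LP ILC2s, and most were not called. Of the 20 receptors tested, 3 were higher in LP ILC2s and *Il1rl1* alone was higher in BM ILC2p, with a median log2 fold change of 0.10, to be read beside the 1.82% and 0.736% of all genes called in each direction. *Il17rb*, the receptor for IL-25, was at 1185, 1370, 1095 and 999.7 CPM against 382, 556, 554 and 474 CPM (log2 fold change 1.24, standard error 0.19, adjusted p = 0.0165). *Nmur1*, the neuromedin U receptor, was at 825, 888, 665 and 954 CPM against 496, 257, 238.4 and 347 CPM (log2 fold change 1.32, standard error 0.27, adjusted p = 0.0428). *Il9r*, the receptor for IL-9, was at 274, 287, 140.3 and 181 CPM against 18.9, 44.7, 62.8 and 74.9 CPM (log2 fold change 2.13, standard error 0.46, adjusted p = 0.0546). The call of *Il17rb* was kept in all 8 fits that left out 1 library, that of *Nmur1* in 3 and that of *Il9r* in 2 (highest adjusted p = 0.143 and 0.174). The list had 5 calls higher in LP ILC2s without the ILC2p library with dropout, and 1 without either replicate of LP experiment 1, without LP replicate 2 of experiment 2, and without ILC2p replicate 2 of experiment 1 or replicate 1 of experiment 2. *Il2rg*, the common cytokine receptor chain, had overlapping groups, at 1595, 1922, 2798 and 1749 CPM and 2826, 2081, 2184 and 1621 CPM (adjusted p = 0.964). In the TGF-β pathway, *Tgfbr1* was at 14.6, 2.97, 17.99 and 13.8 CPM in LP ILC2s and 96.2, 38.2, 0.472 and 1.80 CPM in BM ILC2p, a wide spread within ILC2p (adjusted p = 0.897), and *Tgfbr2* was not called either (adjusted p = 0.962).

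Among 15 ILC2 transcription factors, 2 were higher in LP ILC2s (against 1.82% of all genes tested) and none was higher in BM ILC2p (against 0.736%), with a median log2 fold change of 0.45. *Rora* encodes RORα, which ILC2s need for their development. The gene (chromosome 9, 68501593 to 69236053, plus strand) was at 1875, 1661, 1529 and 1729 CPM in LP ILC2s against 442, 457, 575 and 398 CPM in BM ILC2p (log2 fold change 1.86, standard error 0.18, adjusted p = 0.000803). Both groups were tight and a wide gap lay between them. *Ets1* was at 1226, 1141, 1707 and 1301 CPM against 728, 789, 628 and 591 CPM (log2 fold change 0.97, standard error 0.19, adjusted p = 0.0413), a call kept in 4 of the 8 fits that left out 1 library (highest adjusted p = 0.124). *Id2*, which all innate lymphoid cells express, was at 2063, 2158, 1569 and 1331 CPM and 3560, 2471, 2603 and 2119 CPM (adjusted p = 0.37). *Bcl11b*, *Gfi1* and *Tcf7*, which are named after their values were seen, were not called, and *Bcl11b* was low in the ILC2p library with dropout, at 2.35, 191, 119 and 164 CPM in ILC2p against 212, 73.7, 169.6 and 195 CPM in LP ILC2s. With 1 library left out the list had 1 to 3 calls, the 3 without the ILC2p library with dropout.

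Of 12 cytokines and effector molecules tested, 5 were higher in LP ILC2s (against 1.82% of all genes tested) and none was higher in BM ILC2p (against 0.736%), and the median log2 fold change was 3.19. Among the 12, *Tph1*, *Il5* and *Il13* passed the filter on low counts through LP ILC2s and could hardly be called in the other direction. For such members the count is no test against the share of all genes. *Csf2*, which encodes GM-CSF, was at 924, 716, 807 and 823 CPM in LP ILC2s and 101, 89.1, 33.8 and 57.9 CPM in BM ILC2p (log2 fold change 3.54, standard error 0.35, adjusted p = 0.000989). *Areg*, which encodes amphiregulin, was at 242, 309.8, 245 and 387 CPM against 35.2, 21.9, 37.6 and 46.2 CPM (log2 fold change 3.07, standard error 0.34, adjusted p = 0.00183). *Il4* was at 197, 228, 265 and 257 CPM against 80.0, 34.0, 70.7 and 33.6 CPM (log2 fold change 2.12, standard error 0.37, adjusted p = 0.0283). For each of the 3 the lowest LP library was above the highest ILC2p library. *Calca*, which encodes the neuropeptide CGRP, was at 459.5, 573, 224 and 150.3 CPM against 36.2, 73.3, 75.6 and 85.7 CPM (log2 fold change 2.38, standard error 0.47, adjusted p = 0.0418), and *Tph1*, the enzyme that starts serotonin synthesis, was at 13.9, 44.9, 106 and 25.8 CPM against 0, 0, 0.148 and 0.177 CPM (adjusted p = 0.0283). The calls of *Csf2* and *Areg* were kept in all 8 fits that left out 1 library, those of *Il4* and *Tph1* in 7 and that of *Calca* in 4 (highest adjusted p = 0.107, 0.128 and 0.143). With LP replicate 1 of experiment 2 left out the list had 3 calls, the lowest number. The hallmark cytokines did not pass the test. *Il5* was at 96.8, 129, 145 and 232 CPM in LP ILC2s and 0, 0, 0.148 and 10.01 CPM in BM ILC2p (adjusted p = 0.214), and *Il13* was at 29.5, 44.1, 18.3 and 25.1 CPM and 0.845, 0, 0.0295 and 0.961 CPM (adjusted p = 0.163), although the groups did not overlap. DESeq2 called 7 of the 12, against 6.14% of all genes it tested. The uncalled *Lif* showed the spread within ILC2p, at 0.0939, 109.5, 0.177 and 95.9 CPM against 87.8, 123, 187 and 281 CPM in LP ILC2s.

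**Figure D3:**
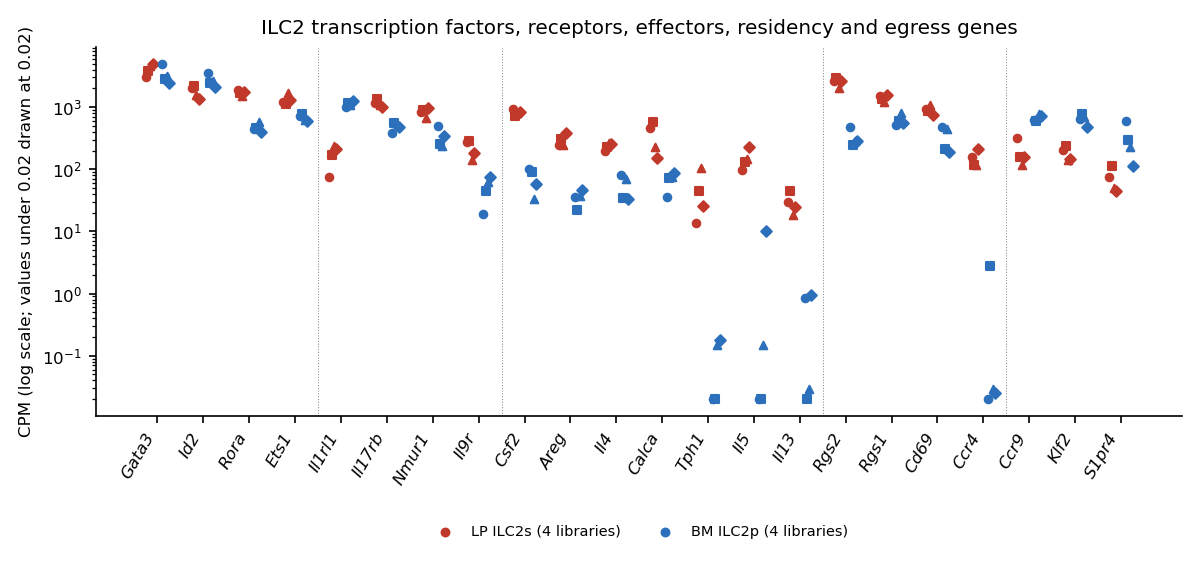
CPM on a log scale of 22 genes in the 4 LP ILC2 libraries (red) and the 4 BM ILC2p libraries (blue), 1 point a library (circle, square, triangle and diamond in the order of the text), with values under 0.02 drawn at 0.02. Dotted lines separate transcription factors, receptors, cytokines and effectors, genes of residency, and genes higher in BM ILC2p. Rora, Csf2, Areg and Rgs2 have wide gaps between the groups, Gata3 and Id2 overlap, and Tph1, Il5, Il13 and Ccr4 are near 0 in most ILC2p libraries.

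Among genes of tissue residency and gut homing, *Rgs1*, *Rgs2*, *Cd69*, *Bhlhe40*, *Gpr183* and *Ccr4* were higher in LP ILC2s. These were 6 of 11 tested (against 1.82% of all genes tested), and 1 was higher in BM ILC2p (against 0.736%, median log2 fold change 1.29). *Rgs2* and *Rgs1* encode regulators that shorten signals of G-protein-coupled receptors. *Rgs2* was at 2610, 2942, 2050 and 2585 CPM against 475, 245, 287 and 281 CPM (log2 fold change 2.98, standard error 0.25, adjusted p = 0.0004), and *Rgs1* was at 1515, 1365, 1224 and 1582 CPM against 507, 599, 815 and 564 CPM (log2 fold change 1.19, standard error 0.20, adjusted p = 0.0215). *Cd69*, whose product holds lymphocytes in tissue by removing the egress receptor S1PR1 from the surface, was at 927, 872, 1079 and 739.5 CPM against 487, 215, 438 and 191 CPM (log2 fold change 1.44, standard error 0.33, adjusted p = 0.0674). *Bhlhe40* was higher by a log2 fold change of 0.87 (adjusted p = 0.0543), and *Gpr183*, an oxysterol receptor that guides innate lymphoid cells in the gut, by 1.69 (adjusted p = 0.0231). *Ccr4*, a chemokine receptor of type 2 lymphocytes, was at 159, 116, 116 and 209 CPM against 0, 2.75, 0.0295 and 0.0253 CPM (adjusted p = 0.052). It passed the filter on low counts through LP ILC2s, so its call is no test against the share of all genes. The calls of *Rgs2*, *Rgs1* and *Gpr183* were kept in all 8 fits that left out 1 library, that of *Ccr4* in 3, and those of *Cd69* and *Bhlhe40* in 1 (highest adjusted p = 0.143, 0.172 and 0.159). With 1 library left out, 3 to 8 of the list were higher in LP ILC2s, 3 without any 1 LP library or ILC2p replicate 1 of experiment 2 and 8 without the ILC2p library with dropout.

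The gut-homing chemokine receptor *Ccr9* was higher in the marrow cells. It was at 612, 599.8, 764 and 719.8 CPM in BM ILC2p and 315, 155, 119 and 160.3 CPM in LP ILC2s (log2 fold change -1.85, standard error 0.31, adjusted p = 0.0238), with no overlap. Of 11 genes of egress and recirculation, 3 were higher in BM ILC2p (against 0.736% of all genes tested) and none in LP ILC2s (against 1.82%, median log2 fold change -1.26). *Klf2*, a transcription factor that drives expression of egress receptors, was at 637, 780.4, 687 and 474 CPM in BM ILC2p and 205, 239, 143 and 148 CPM in LP ILC2s (log2 fold change -1.81, standard error 0.26, adjusted p = 0.00969). *S1pr4*, a sphingosine-1-phosphate receptor, was at 606, 295, 230.0 and 113 CPM against 76.4, 111, 49.4 and 44.6 CPM (log2 fold change -2.14, standard error 0.52, adjusted p = 0.0895), and *Il6ra*, an IL-6 receptor chain, was at 14.1, 92.5, 46.2 and 36.5 CPM against 0.242, 0.0503, 1.02 and 0.295 CPM (adjusted p = 0.0393). *Il6ra* passed the filter on low counts through BM ILC2p, so its call is no test against the share of all genes. *S1pr1* was low in both groups, at 13.6, 8.61, 1.08 and 6.27 CPM in LP ILC2s and 0, 0, 9.21 and 0.0253 CPM in BM ILC2p. The calls of *Ccr9* and *Klf2* were kept in all 8 fits that left out 1 library, that of *Il6ra* in 4 and that of *S1pr4* in 1 (highest adjusted p = 0.13 and 0.246). The egress list had 1 call left without ILC2p replicate 2 of experiment 1 and without LP replicate 2 of either experiment.

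Immediate early genes, which cells switch on within minutes of a stimulus and also during isolation from tissue, divided into both directions. Of 26 tested, 6 were higher in LP ILC2s (against 1.82% of all genes tested) and 5 were higher in BM ILC2p (against 0.736%). *Nr4a1*, an orphan nuclear receptor induced by many activating signals, spans 101097277 to 101105223 of chromosome 15 (plus strand) and was at 14775, 15330, 13401 and 12540 CPM in LP ILC2s, and at 63.0, 315, 359 and 160.1 CPM in BM ILC2p. Every LP library was far above every ILC2p library, 62.5-fold in the fit (log2 fold change 5.97, standard error 0.53, adjusted p = 0.000611). *Gadd45b*, a stress response gene, was at 1270, 1762, 852 and 1152 CPM against 95.6, 50.9, 63.3 and 76.9 CPM (log2 fold change 4.14, standard error 0.31, adjusted p = 0.000246), and *Fosl2*, a FOS family member of AP-1, was at 302, 437, 284 and 214 CPM against 3.29, 10.8, 10.01 and 20.4 CPM (log2 fold change 4.79, standard error 0.57, adjusted p = 0.00288). *Nr4a2*, *Atf3* and *Egr2* were the other 3 higher in LP ILC2s, with adjusted p of 0.0178, 0.0993 and 0.0796. The calls of *Nr4a1*, *Nr4a2*, *Gadd45b* and *Fosl2* were kept in all 8 fits that left out 1 library, and those of *Atf3* and *Egr2* in 1 (highest adjusted p = 0.227 and 0.199).

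*Jun*, the JUN subunit of AP-1, was among the 5 that were higher in BM ILC2p, at 25334, 18607, 21374 and 17210 CPM against 7761, 4798, 5971 and 5270 CPM in LP ILC2s (log2 fold change -1.79, standard error 0.19, adjusted p = 0.00162). *Jund* was at 4425, 2763, 2837 and 1424 CPM against 628, 341, 444 and 299.9 CPM (log2 fold change -2.74, standard error 0.36, adjusted p = 0.00627). *Egr1* was at 2505, 1646, 1835 and 1161 CPM against 604, 399, 498 and 530.4 CPM (log2 fold change -1.82, standard error 0.25, adjusted p = 0.00844). For each of these the lowest ILC2p library was more than 1.5 times the highest LP library. *Ier5* and *Zfp36*, whose product destabilises cytokine mRNA, had log2 fold changes of -1.95 and -0.88 (adjusted p = 0.0322 and 0.0322), and their calls were kept in 7 and 5 of the 8 fits that left out 1 library (highest adjusted p = 0.113 and 0.105). Without LP replicate 1 of experiment 2, 3 of the list were higher in BM ILC2p. *Fos* itself was level, at 9881, 10148, 9381 and 10874 CPM and 12925, 10489, 11059 and 9114 CPM, and *Junb* and *Dusp1* also overlapped (adjusted p = 0.942, 0.957 and 0.62). The part that enzyme digestion played in the LP values was not tested, and *Fos*, *Junb* and *Dusp1* were at or above 8239 CPM in every library of both tissues. Of 15 NF-κB subunits, inhibitors and targets, only *Tnfaip3*, which encodes the inhibitor A20, was called (against 2.56% of all genes tested), at 5998, 5320, 4540 and 4415 CPM in LP ILC2s against 2568, 2616, 3583 and 2679 CPM (log2 fold change 0.82, standard error 0.17, adjusted p = 0.0464), kept in 3 of the 8 fits (highest adjusted p = 0.156).

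**Figure D4:**
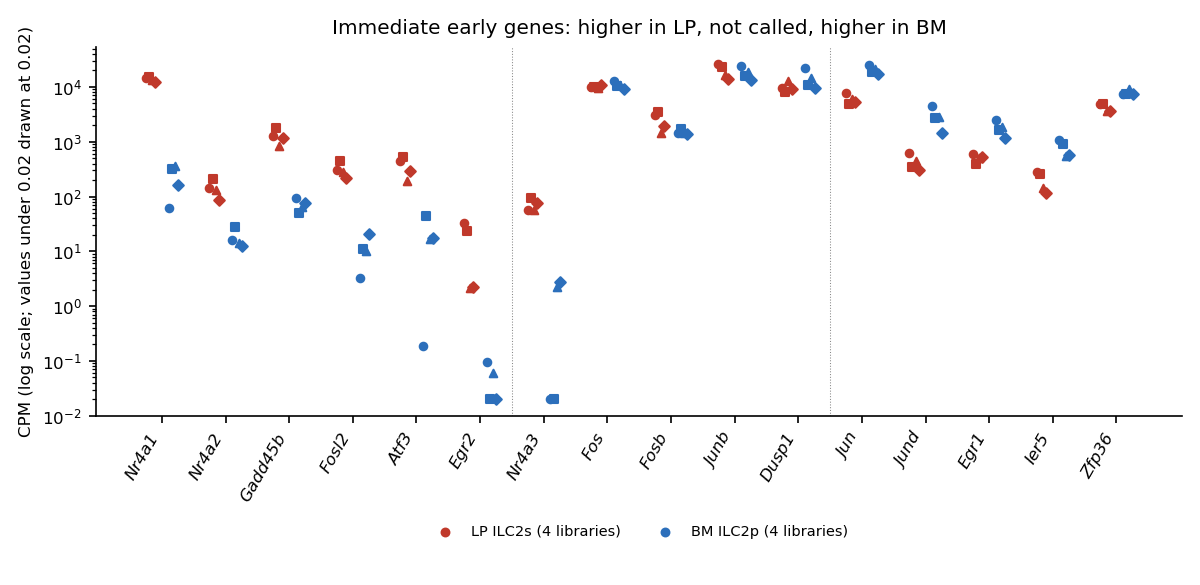
CPM on a log scale of 16 immediate early genes in the 4 LP ILC2 libraries (red) and the 4 BM ILC2p libraries (blue), 1 point a library (circle, square, triangle and diamond in the order of the text), with values under 0.02 drawn at 0.02. The left block is higher in LP ILC2s, the middle block is not called and the right block is higher in BM ILC2p. Nr4a1 lies between 12540 and 15330 CPM in the LP libraries and at 359 CPM or less in the ILC2p libraries, while Jun, Jund and Egr1 are higher in every ILC2p library.

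Promoter sequences are shown for 2 genes that were higher in LP ILC2s and that are known targets of cAMP signalling, chosen after their values were seen. The bases are from RefSeq (GRCm38.p6), the 120 bases before the transcription start on the plus strand, with no transcribed bases. Capitals mark the cAMP response element TGACGTCA or its variant TGACGCA, searched on both strands, and the motifs used here cannot match the same letters.
Nr4a1, chr15:101266726-101266845: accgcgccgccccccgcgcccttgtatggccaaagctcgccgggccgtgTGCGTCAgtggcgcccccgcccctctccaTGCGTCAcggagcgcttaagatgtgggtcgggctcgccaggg
Areg, chr5:91139479-91139598: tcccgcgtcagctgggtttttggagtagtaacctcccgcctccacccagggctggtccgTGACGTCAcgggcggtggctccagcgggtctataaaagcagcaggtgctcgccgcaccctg
*Nr4a1* has 2 variant elements that begin 71 and 42 bases before the start, and 4 in the 250 bases before the start. *Areg* has 1 full element that begins 61 bases before the start. The full element lies within 250 bases before the start in 2 of the 130 genes higher in LP ILC2s that have a RefSeq promoter (1.54%), in 0 of 64 genes higher in BM ILC2p, in 3.29% of the 7874 genes tested that have one and in 1.77% of all 27025 genes with one. The variant lies in 7 of 130 (5.38%), in 0 of 64, in 3.78% of the genes tested and in 2.00% of all. The AP-1 site TGANTCA lies in 12 of 130 (9.23%), in 3 of 64 (4.69%), in 5.08% and in 7.82%. These are matches of letters in these windows, not sites of binding.

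By the rule for the largest fitted log2 fold changes, 12 genes were named among the 106 eligible genes higher in LP ILC2s. The rule favours genes with 0 counts in the other group, whose fitted value depends on the prior count, so these are not the 12 genes that changed most, and genes with a few counts there, such as *Gzma* and *Egln3*, are given in their own groups. Of these, 11 had 0 counts in all 4 ILC2p libraries and *Igsf5*, a junctional adhesion molecule, had a single count. *Dtx1*, a ubiquitin ligase of the Notch pathway, spans 121130211 to 121161936 of chromosome 5 (minus strand). Its level was 441, 363, 177 and 376 CPM in LP ILC2s and 0 in BM ILC2p, at least 2157-fold higher when each ILC2p library is set at a floor of 3 counts (adjusted p = 0.000247). *Atp8a2*, a phospholipid flippase, was at 136, 216, 179 and 246 CPM (at least 1233-fold higher, adjusted p = 0.000368). *Gjb2*, the gap junction protein connexin 26, was at 166, 194, 107 and 112 CPM (at least 922-fold higher, adjusted p = 0.000728). These 3 were 0 in ILC2p libraries of up to 35961215 counts. *Nsg2* was at 56.4, 103, 70.3 and 76.0 CPM and *C2*, a complement protease, at 45.2, 102, 67.2 and 37.2 CPM. *Nckap5*, *Arc*, *Map6*, *Cass4* and *Rem2* lay at lower levels, between 20.4 and 59.0 CPM. *Arc* encodes an activity-regulated protein best known from neurons. The lower bounds of the 11 ranged from 182-fold for *Rem2* to 2157-fold for *Dtx1*. The calls of *Map6*, *Cass4* and *Rem2* were lost in 2, 3 and 3 of the 8 fits that left out 1 library (highest adjusted p = 0.102, 0.111 and 0.112).

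Other genes of the Notch pathway were looked up after these values were seen. *Hes1*, the classical transcriptional target of Notch (chromosome 16, 30064470 to 30067882), was at 2023, 2113, 1725 and 1289 CPM in LP ILC2s against 129, 89.0, 150.1 and 42.9 CPM in BM ILC2p (log2 fold change 4.12, standard error 0.40, adjusted p = 0.000803), and its call was kept in all 8 fits that left out 1 library. *Hey1* and *Heyl*, related targets, were at 1.60, 32.8, 24.7 and 5.24 CPM and 5.28, 20.9, 4.08 and 37.0 CPM in LP ILC2s and at 0 in BM ILC2p (at least 102-fold and 107-fold higher, adjusted p = 0.0692 and 0.0532). *Jag1*, a Notch ligand, was at 5.38, 18.5, 43.0 and 5.16 CPM and 0 (at least 114-fold, adjusted p = 0.0516). The calls of *Hey1*, *Heyl* and *Jag1* were kept in 1, 2 and 2 of the 8 fits (highest adjusted p = 0.181, 0.16 and 0.153). Receptors *Notch1* and *Notch2* were not called. *Notch1* was at 201, 84.6, 48.2 and 36.8 CPM and 0.751, 83.5, 30.8 and 19.5 CPM (adjusted p = 0.807), and *Notch2* was at 186, 174, 143 and 152 CPM and 319, 345, 138 and 164 CPM (adjusted p = 0.739).

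A few genes that respond to oxygen, dioxin-like ligands or cAMP were also chosen after their values were seen. *Hilpda*, a lipid droplet protein induced at low oxygen, was at 1767, 1962, 1476 and 1509 CPM in LP ILC2s against 105, 37.6, 135 and 68.0 CPM in BM ILC2p (log2 fold change 4.28, standard error 0.39, adjusted p = 0.000722). *Egln3*, a prolyl hydroxylase that acts on HIF proteins, was at 118, 95.1, 38.2 and 66.1 CPM against 0.0939, 0, 0.118 and 0.126 CPM (adjusted p = 0.00208). *Epas1*, which encodes HIF-2α, was at 635, 710.1, 689 and 894 CPM against 0.0939, 0.0611, 25.7 and 15.3 CPM (adjusted p = 0.0835), a call kept in 2 of the 8 fits that left out 1 library (highest adjusted p = 0.173). *Hif1a* had overlapping groups at 179.5, 179, 242 and 237 CPM and 209.6, 149.8, 148 and 139.6 CPM. *Tiparp*, a target of the aryl hydrocarbon receptor, was at 665, 595, 626 and 548 CPM against 111, 48.4, 37.8 and 36.04 CPM (log2 fold change 3.38, standard error 0.40, adjusted p = 0.00272). *Ahrr*, which encodes the repressor of that receptor, was at 42.2, 10.3, 19.6 and 22.1 CPM and 0 (at least 149-fold higher, adjusted p = 0.0381), a call lost with any 1 LP library left out (highest adjusted p = 0.128). The receptor gene *Ahr* was at 377, 176, 278 and 204 CPM and 0.469, 50.9, 50.3 and 35.8 CPM and did not pass the test (adjusted p = 0.264). *Crem*, a cAMP-responsive repressor, was at 387, 521, 367 and 286 CPM against 42.9, 8.80, 13.3 and 15.9 CPM (log2 fold change 4.27, standard error 0.53, adjusted p = 0.00424), and *Gem*, a small GTPase, was at 1484, 1415, 1070 and 1302 CPM against 213, 205, 142 and 188 CPM (log2 fold change 2.82, standard error 0.21, adjusted p = 0.000246).

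In the direction of BM ILC2p, the same rule named 12 of 54 eligible genes. Of these, 6 encode granule or calcium-binding proteins of myeloid cells and are described in the next paragraph. *Alox5*, the 5-lipoxygenase that starts leukotriene synthesis, was at 293, 311, 528 and 407 CPM in BM ILC2p and 17.4, 42.1, 17.0 and 39.1 CPM in LP ILC2s (log2 fold change -3.74, standard error 0.42, adjusted p = 0.00214). *Lztfl1*, a protein of cilia and of membrane traffic, was at 273, 252, 342 and 237.6 CPM against 31.7, 30.8, 20.5 and 20.5 CPM (log2 fold change -3.42, standard error 0.31, adjusted p = 0.000722). *Rarg*, a retinoic acid receptor, was at 183, 176, 208 and 173 CPM against 0.485, 18.2, 12.4 and 21.8 CPM (log2 fold change -3.81, adjusted p = 0.0701). *Tmem158*, at 264, 154, 187 and 136 CPM against 1.502, 17.3, 8.04 and 6.12 CPM (adjusted p = 0.0178), *Tmem51*, with a log2 fold change of -3.89 (adjusted p = 0.0787), and *Pbld1*, with -5.19 (adjusted p = 0.043), were the others. The calls of *Alox5*, *Lztfl1* and *Tmem158* were kept in all 8 fits that left out 1 library, that of *Pbld1* in 4, that of *Rarg* in 2 and that of *Tmem51* in 1 (highest adjusted p = 0.143, 0.19 and 0.207). *Ramp1*, a subunit of the CGRP receptor chosen after its values were seen, was at 510.4, 237, 346 and 289 CPM against 88.0, 61.5, 67.5 and 28.9 CPM (log2 fold change -2.49, standard error 0.40, adjusted p = 0.0182), opposite in direction to the ligand gene *Calca*.

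Of 15 neutrophil genes tested, 11 were higher in BM ILC2p (against 0.736% of all genes tested) and none in LP ILC2s. The list summed to 994, 1983, 1131 and 1732 CPM in BM ILC2p and to 1.31, 0.805, 4.32 and 16.2 CPM in LP ILC2s. At such LP sums the called members passed the filter on low counts through BM ILC2p and could hardly be called in the other direction. Their number is therefore no test against the share of all genes. *Mpo*, the myeloperoxidase of immature granulocytes (chromosome 11, 87607083 to 87617915 on the plus strand), was the most abundant member, at 655, 1147, 417 and 976 CPM in BM ILC2p and 0 in all LP ILC2 libraries (at least 4579-fold higher in BM ILC2p, adjusted p = 0.000246). *Elane* and *Ctsg*, further enzymes of primary granules, were high in 3 ILC2p libraries and low in the library with dropout. *Elane* was at 4.04, 318, 94.7 and 336 CPM and *Ctsg* at 2.44, 200.2, 80.0 and 114 CPM, both at 0 in LP ILC2s (adjusted p = 0.0283 and 0.0313). *Prtn3*, the remaining one, was at 146, 131, 28.8 and 55.4 CPM and was not low in that library. *S100a8* and *S100a9*, the calprotectin subunits of mature neutrophils, were at 62.1, 63.6, 174 and 81.6 CPM and 26.9, 23.7, 74.1 and 38.9 CPM, and *Ngp*, a granule protein, was at 38.5, 38.1, 100.2 and 48.2 CPM, with at most 5 counts in any LP library. The mast cell and basophil protease *Cpa3* was at 310.3, 124, 234 and 112 CPM in BM ILC2p and 5.72, 0, 1.26 and 0 CPM in LP ILC2s (adjusted p = 0.0748, kept in 2 of the 8 fits that left out 1 library, highest adjusted p = 0.212), whereas *Ms4a2*, which defines these cells, had 0 counts in all 8 libraries. The 14 basophil and mast cell genes summed to 316, 129, 249 and 138 CPM in BM ILC2p and 30.0, 31.6, 16.3 and 15.2 CPM in LP ILC2s, with 2 of 4 tested higher in BM ILC2p (against 0.736% of all genes tested) and none with both libraries that stand apart left out. These 2, *Cpa3* and *Prss34*, likewise passed the filter through BM ILC2p, so their number is no test against that share. The ILC2p gate excluded CD11b+ and Gr-1+ cells, and *Itgam*, which encodes CD11b, was at 1.22, 0.244, 2.13 and 1.21 CPM. The neutrophil list had 7 to 11 calls with 1 library left out, 7 without LP replicate 1 of experiment 2, and 8 with both libraries that stand apart left out.

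The Tgfbr2-/- ILC2p libraries of the same experiments held these transcripts at far higher levels. A set of 20 genes was at 500 CPM or more in every Tgfbr2-/- ILC2p library and under 1 CPM in at least 3 LP ILC2 libraries of WT genotype. In the WT ILC2p libraries, 18, 17, 16 and 16 of the 20 lay under 1% of the mean Tgfbr2-/- level of their experiment, at a median of 0.207%, 0.217%, 0.578% and 0.276%. Within a WT library most of these shares were close to each other. Those under 1% ran from 0.485% to 0.700% in replicate 1 of experiment 2 and, with the widest range, from 0.161% to 0.919% in replicate 2 of experiment 1. *S100a8*, for example, was at 0.221%, 0.226%, 0.671% and 0.314% of the Tgfbr2-/- level and *Ngp* at 0.209%, 0.207%, 0.577% and 0.278%. *Mpo* lay well above that level, at 8.60%, 15.1%, 4.55% and 10.7%, and *Elane* and *Ctsg* were above it in 3 libraries, at 0.166%, 13.1%, 3.98% and 14.2% and 0.335%, 27.5%, 15.1% and 21.5%. Of the 77 genes higher in BM ILC2p, 16 were under 1% of the Tgfbr2-/- level in every WT ILC2p library, 7 of them neutrophil genes, and so were 15 of the 191 genes higher in LP ILC2s. Without the 69 tested genes under 1%, 170 genes were higher in LP ILC2s and 52 in BM ILC2p. Whether RNA or reads of the Tgfbr2-/- libraries contributed to the WT libraries was not tested.

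**Figure D5:**
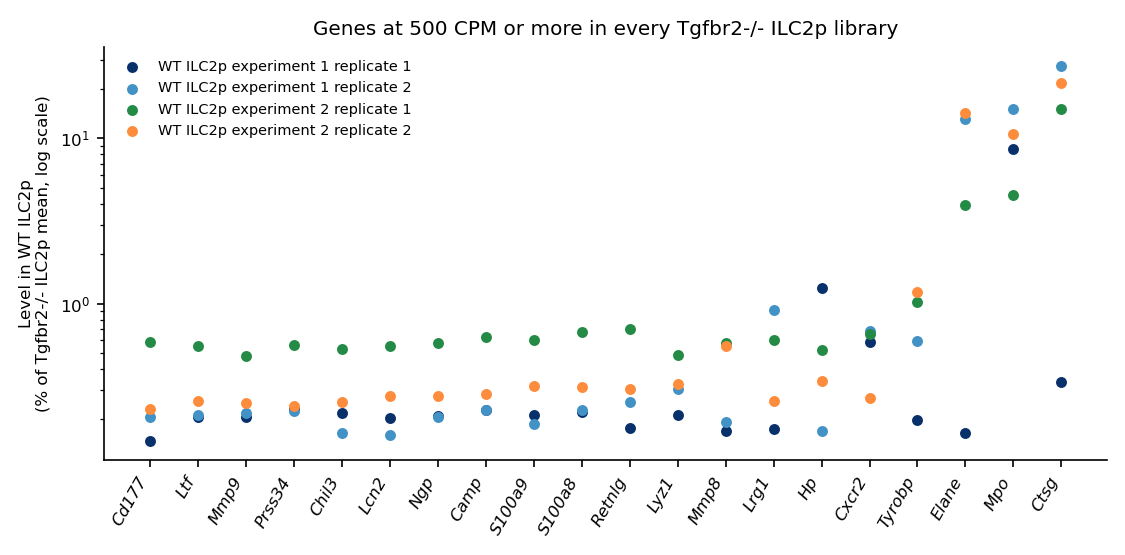
For 20 genes at 500 CPM or more in every Tgfbr2-/- ILC2p library, the y axis gives the level in each of the 4 WT ILC2p libraries as a percent of the mean of the Tgfbr2-/- ILC2p libraries of its experiment, on a log scale. Most genes in the left of the plot lie on a nearly level line for each library, at a median of 0.207% and 0.217% in the replicates of experiment 1 and 0.578% and 0.276% in those of experiment 2, and Elane, Mpo and Ctsg rise above these lines except in replicate 1 of experiment 1 for Elane and Ctsg.

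Genes listed for other lymphoid cells were found in both tissues. Among NK cell and ILC1 genes, *Gzma* was higher in LP ILC2s, at 296, 119.8, 167 and 193 CPM against 0, 0.0611, 0.207 and 0.0759 CPM (adjusted p = 0.000246), and *Nkg7* was at 702, 514, 692 and 555 CPM against 0.376, 34.9, 32.7 and 81.9 CPM without passing the test (adjusted p = 0.102). *Ccl5* was higher in BM ILC2p, at 126, 148, 129 and 148 CPM against 45.7, 17.0, 7.44 and 13.8 CPM (adjusted p = 0.0526, kept in 2 of the 8 fits that left out 1 library, highest adjusted p = 0.168). *Eomes* had at most 1 count in any of the 8 libraries. The list of 14 summed to 1289, 861, 978 and 896 CPM in LP ILC2s and 127, 221, 202 and 295 CPM in BM ILC2p. Among ILC3 genes, *Il22* was at 404, 163, 13.3 and 1.77 CPM in LP ILC2s, highest in both libraries of experiment 1, and at 0 in BM ILC2p (adjusted p = 0.0498, kept in 3 of the 8 fits, highest adjusted p = 0.143). *Ltb* was higher in BM ILC2p, at 3733, 2379, 2058 and 1816 CPM against 1365, 1083, 916 and 787 CPM (log2 fold change -1.27, standard error 0.26, adjusted p = 0.0475), a call kept in 4 of the 8 fits (highest adjusted p = 0.143) and lost with both libraries that stand apart left out. The ILC3 list of 10 summed to 1964, 1381, 981 and 824 CPM and 3913, 2400, 2146 and 1902 CPM, with *Ltb* the most abundant member. Of T cell genes, *Cd6* was higher in LP ILC2s at 77.4, 61.4, 49.1 and 60.6 CPM against 0, 0, 0.413 and 0.228 CPM (adjusted p = 0.0229), while *Cd3e* was at 14.4, 5.08, 2.998 and 1.99 CPM and 0, 0.0611, 0.0886 and 0.86 CPM. The T cell list of 11 summed to 562, 509, 572 and 419 CPM and 622, 354, 369 and 489.5 CPM, with *Lat*, which ILC2s share, the most abundant. Of B cell genes, *Cd79a* was at 22.2, 7.45, 2.88 and 10.8 CPM and 0 (adjusted p = 0.0497, kept in 2 of the 8 fits, highest adjusted p = 0.151), and the list of 11 summed to 85.7, 64.0, 91.0 and 97.4 CPM and 41.4, 44.3, 0.768 and 28.2 CPM. *Igj*, the joining chain of plasma cell antibodies, looked up after its values were seen, was at 402, 387, 47.9 and 177 CPM against 1.502, 0.55, 0.974 and 6.15 CPM (log2 fold change 6.76, standard error 1.03, adjusted p = 0.0151). The part of other cells in these values was not tested.

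Macrophage, epithelial and stromal genes summed highest in LP replicate 2 of experiment 2, although stromal genes were spread over the other 3 LP libraries too. The 14 monocyte, macrophage and dendritic cell genes summed to 1.502, 43.9, 16.9 and 498 CPM in LP ILC2s and 45.2, 68.8, 90.2 and 75.4 CPM in BM ILC2p. *Csf1r*, the growth factor receptor of macrophages, was at 0, 0.0503, 0 and 53.7 CPM in LP ILC2s. The 20 epithelial genes summed to 15.9, 21.2, 356 and 765 CPM and 5.82, 12.5, 24.2 and 31.7 CPM, with *Krt8* at 0.145, 0.0503, 36.04 and 236 CPM in LP ILC2s, so that replicate 1 of experiment 2 also held some. The 13 stromal and endothelial genes summed to 229, 227, 133 and 529.9 CPM and 102, 96.8, 80.8 and 2.58 CPM, and *Col3a1* was at 0.921, 0, 0.18 and 95.4 CPM in LP ILC2s. None of the 10 members of these 3 lists that were tested was called by edgeR, 0 had an unadjusted p under 0.05, and DESeq2 called 0. Erythroid and megakaryocyte genes summed to 0.388, 0.705, 7.56 and 8.85 CPM in LP ILC2s and 140.4, 30.1, 145 and 48.6 CPM in BM ILC2p, with 0 of 2 tested called by edgeR and 1 by DESeq2. No eosinophil gene passed the filter on low counts, and the list summed to 0 in LP ILC2s and 0.563, 0.367, 0.797 and 6.45 CPM in BM ILC2p.

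Of all genes tested with edgeR, 2.56% were called and 9.39% had an unadjusted p under 0.05. DESeq2 called 6.14% of the 10167 genes it tested. The counts of the following lists are to be read beside these shares. None of 34 cell cycle genes was called by edgeR (5 had an unadjusted p under 0.05, DESeq2 called 3), with a median log2 fold change of -1.0, and *Mcm2*, a subunit of the replicative helicase, was at 64.1, 93.9, 56.5 and 62.2 CPM in LP ILC2s and 157, 234, 145 and 71.4 CPM in BM ILC2p (adjusted p = 0.347). None of 9 progenitor genes was called (2 with an unadjusted p under 0.05, DESeq2 called 1). *Kit*, the stem cell factor receptor, was at 505, 349, 249.8 and 308 CPM in LP ILC2s against 13.3, 139, 69.5 and 110.0 CPM in BM ILC2p (adjusted p = 0.17), and 2 of the list were called without the ILC2p library with dropout. *Flt3* had 0 counts in all 8. None of 20 genes of sterol and fatty acid synthesis was called (4 with an unadjusted p under 0.05, DESeq2 called 4) at a median log2 fold change of 1.25, with the lanosterol demethylase *Cyp51* at 336, 340.3, 280.3 and 394 CPM against 0.282, 46.0, 18.3 and 42.8 CPM (adjusted p = 0.142). Dropout in ILC2p touched many members of these lists. Under 1 CPM in some ILC2p libraries and at 20 CPM or more in others were 14 of 34 cell cycle, 10 of 15 progenitor and 12 of 21 sterol members. Respiratory chain subunits lay level, with a median log2 fold change of 0.01 over 35 genes and 0 calls (2 with an unadjusted p under 0.05, DESeq2 called 0). Of 18 glycolysis genes only the hexokinase *Hk2* was called (against 2.56% of all genes tested), at 115, 108, 53.5 and 60.1 CPM in LP ILC2s against 8.92, 21.5, 4.28 and 11.4 CPM (log2 fold change 2.87, standard error 0.67, adjusted p = 0.0784), kept in 2 of the 8 fits that left out 1 library (highest adjusted p = 0.259). Heat shock proteins, interferon-stimulated genes, MHC class II presentation, BCL2 family members and clock genes had 0 calls each by edgeR over 14, 16, 10, 15 and 13 genes (1, 2, 3, 2 and 2 with an unadjusted p under 0.05, and 0, 2, 1, 2 and 2 called by DESeq2). By the same background of 2.56%, 1 of 13 checkpoint and costimulatory receptors and 2 of 14 TGF-β pathway genes were called. These were *Ctla4*, at 10.7, 16.3, 4.02 and 10.4 CPM in LP ILC2s and 0 in BM ILC2p (at least 65.8-fold higher, adjusted p = 0.0433), *Tgif1*, a SMAD corepressor, at 374, 287, 229 and 227 CPM against 78.9, 65.7, 62.9 and 34.7 CPM (log2 fold change 2.21, standard error 0.34, adjusted p = 0.0151), and *Tgfb3*, at 4.94, 15.7, 3.30 and 10.6 CPM and 0 (adjusted p = 0.0475). The calls of *Ctla4* and *Tgfb3* were kept in 2 of the 8 fits (highest adjusted p = 0.143 and 0.143). Both genes passed the filter on low counts through LP ILC2s and could hardly be called in the other direction. Their calls are therefore no test against that background.

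The same tissues were compared in Tgfbr2-/- libraries (3 of LP ILC2s and 4 of BM ILC2p), which share no library with the WT comparison but come from the same runs. In one fit over all 15 libraries, 1051 of 12806 genes were higher in Tgfbr2-/- LP ILC2s (8.21%) and 441 were higher in Tgfbr2-/- BM ILC2p (3.44%). The Tgfbr2-/- ILC2p libraries differed from the WT ones in genes of other cells. Neutrophil genes summed to 101445, 85198, 85349 and 98062 CPM and the monocyte, macrophage and dendritic cell genes to 12708, 12236, 11493 and 12966 CPM in Tgfbr2-/- ILC2p, against 994 to 1983 CPM and 45.2 to 90.2 CPM in WT ILC2p. The ILC2 transcription factors summed to 3577, 3643, 2861 and 4844 CPM and the sort gate genes to 2232, 2632, 2301 and 2718 CPM, against 6318 to 10164 CPM and 3847 to 5388 CPM in WT ILC2p. Sums of Tgfbr2-/- libraries are scaled over 15 libraries and those of WT libraries over 8. The part of these cells in the Tgfbr2-/- tissue differences and in the interaction was not tested. Of the 191 genes higher in WT LP ILC2s, 110 were called in the same direction there, and of the 77 genes higher in WT BM ILC2p, 38 were. The 77 include 11 neutrophil genes, whose sums in Tgfbr2-/- ILC2p were far above those in WT ILC2p. How many of the 38 were neutrophil genes was not counted. *Rora*, *Il17rb*, *Rgs2*, *Nr4a1* and *Hes1* were higher in Tgfbr2-/- LP ILC2s too, with log2 fold changes of 2.91, 1.85, 2.38, 6.52 and 6.57 (adjusted p = 0.000429, 0.000203, 0.000101, 7.64e-05 and 3.4e-06), and *Il1rl1* was lower, with -2.39 (adjusted p = 0.000931). *Ccr9*, *Ltb* and *Ly6a* had log2 fold changes of -0.06, 0.10 and 0.07 in the Tgfbr2-/- comparison (adjusted p = 0.976, 0.892 and 0.921). The difference between the genotypes was tested itself, as the interaction of tissue and genotype, and 174 of 12806 genes (1.36%) passed, 15 of them among the 191 and 5 among the 77. *Il9r* differed more between tissues in Tgfbr2-/- than in WT libraries, at 0.298, 0, 0.511 and 0.658 CPM in Tgfbr2-/- BM ILC2p and 197, 114 and 87.5 CPM in Tgfbr2-/- LP ILC2s (interaction 6.27 on the log2 scale, standard error 1.05, adjusted p = 0.0101). *Tnfaip3* did so as well, at 581, 825, 818 and 970.1 CPM and 3946, 4563 and 4170 CPM (interaction 1.58, standard error 0.25, adjusted p = 0.00676). In both genes the WT ILC2p levels lay above those of Tgfbr2-/- ILC2p, and the part of other cells in this was not tested. *Gzma* differed less, at 34.4, 25.4, 26.8 and 41.8 CPM and 119, 222 and 772 CPM (interaction -7.32, adjusted p = 0.00475), and since WT ILC2p had at most 7 counts its interaction depends on the prior count. The size of the *Il9r* interaction depends on it in part, with *Il9r* under 1 CPM in every Tgfbr2-/- ILC2p library. *Ltb* also passed (1.37, standard error 0.35, adjusted p = 0.0971), and *Ccr9* did not (adjusted p = 0.427). *Ly6a* was not among the genes of this text that passed. The number of genes that passed the interaction test was 58, 57 and 70 without each Tgfbr2-/- LP ILC2 library, 497 without Tgfbr2-/- ILC2p replicate 1 of experiment 2, 307 without the WT ILC2p library with dropout, and 105, 111 and 83 without WT LP replicate 2 of experiment 1 and replicates 1 and 2 of experiment 2.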

How the data were processed

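RNA of sorted WT LP ILC2s and BM ILC2p was measured by bulk RNA-seq. The authors aligned reads to mm9 with TopHat (the submitters' processing notes list Bowtie2) and counted them per gene with rpkmforgenes over full transcripts, leaving out stretches shared by genes of different names. The deposited files give raw counts and RPKM per gene for each library; the counts were used throughout and RPKM only in an alternative. Whether counting used strand is not given in the sources used here, so reads of a gene and an antisense partner cannot be told apart. The 24690 entries carry 24089 symbols, and 205 entries join several genes.

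Counts were tested with edgeR 4.0.16 (R 4.3.3), with TMM scaling, filterByExpr and the quasi-likelihood test over the 8 WT libraries with tissue as the only term, as the study's methods use edgeR with an adjusted p under 0.1 and a fold change over 1.5. P-values were adjusted with the Benjamini-Hochberg method over all 10468 genes tested. Genes with 0 counts in a group were given lower bounds from a floor of 3 counts a library. Such bounds cover counting error only. Alternatives used DESeq2 1.42.0 and limma 3.58.1 on log2(RPKM + 1) or log2(RPKM + 0.1). The test was tried on simulated counts for 10468 genes, where it called 27% of 100 genes changed 4-fold, 74% of 100 genes changed 16-fold and 7 unchanged genes. The simulated counts had the same spread in both tissues and no dropout of single libraries, and only genes above a set mean level were changed. These rates therefore need not hold for the real libraries. Gene positions are from GENCODE on NCBIM37.

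The members, gene lists and tests were chosen with earlier results of these data known. The text names, in each direction, the 12 called genes with the largest fitted log2 fold change, if all 4 libraries of the higher group were at 20 CPM or more and the groups did not overlap, leaving out joined entries, predicted genes and small RNAs. From each list up to 4 called members a direction and up to 2 uncalled members with the highest mean CPM were named, besides gate genes and ILC2 markers. A few genes that the rule names are not reported here. Genes outside this rule were chosen after their values were seen. These were the Notch, oxygen, aryl hydrocarbon receptor and cAMP genes, *Ramp1*, *Igj*, *Gkn3*, *Ptgs2*, *Vps37b*, *Deptor*, *Lmna*, *Cdkn1a* and *Txnip*, and the list members *Tph1*, *Il5*, *Il13*, *Gpr183*, *Ccr4*, *Nr4a2*, *Egr2*, *Ier5*, *Fos*, *Fosb*, *Nr4a3*, *Bcl11b*, *Gfi1*, *Tcf7*, *Il1rap*, *S1pr1*, *Itgam*, *Ms4a2*, *Flt3*, *Eomes*, *Cd3e*, *Csf1r*, *Krt8* and *Col3a1*.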

Additional observations from a re-analysis of the deposited data

Results flagged for a closer look

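Of 266 groups of 4 libraries looked at for a library far from the other 3, 28 were picked out by Dixon's ratio, where chance picks about 1 in 20. In LP ILC2s, replicate 2 of experiment 2 was far above the others for *Csf1r* (53.7 CPM), *Col3a1* (95.4 CPM), *Krt8* (236 CPM) and the summed macrophage genes (498 CPM), and it alone held counts of the neutrophil genes *S100a8* (0.369 CPM), *Ngp* (0.0737 CPM) and *Prtn3* (0.0737 CPM). Replicate 1 of LP experiment 1 was highest for *Cass4* (44.6 CPM) and *Rem2* (48.3 CPM), and replicate 1 of experiment 2 for *Klrg1* (1042 CPM). *Deptor* was highest in replicate 2 of experiment 2 (780.4 CPM).

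In BM ILC2p, replicate 1 of experiment 1 had the highest dropout share (13.7%) and was highest for *Cdkn1a* (282 CPM), *Bhlhe40* (1598 CPM), *Hif1a* (209.6 CPM) and *Tiparp* (111 CPM). Replicate 2 of experiment 1 alone held more than a trace of *Ccr4* (2.75 CPM). Replicate 1 of experiment 2 was highest for *Ptgs2* (12.7 CPM), *Csf1r* (8.38 CPM), *S1pr1* (9.21 CPM), *Ngp* (100.2 CPM), *Tnfaip3* (3583 CPM) and *Zfp36* (9035 CPM). Replicate 2 of experiment 2 was highest for *Il5* (10.01 CPM), *Igj* (6.14 CPM), *Cd3e* (0.86 CPM), *Krt8* (0.556 CPM) and the summed eosinophil genes (6.45 CPM).

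The tissue difference was not the same in WT and Tgfbr2-/- libraries for 7 genes given here, by edgeR's quasi-likelihood test of the interaction over 15 libraries. The Tgfbr2-/- ILC2p libraries also held far more of the neutrophil and monocyte genes, and the part of such cells in these differences was not tested. On the log2 scale, LP over BM was larger in Tgfbr2-/- than in WT libraries for *Il9r* (6.27, adjusted p = 0.0101), *Tnfaip3* (1.58, adjusted p = 0.00676), *Pbld1* (7.48, adjusted p = 0.0586) and *Ltb* (1.37, adjusted p = 0.0971). It was smaller for *Gzma* (-7.32, adjusted p = 0.00475), *Igj* (-9.85, adjusted p = 0.0835) and *Ngp* (-10.07, adjusted p = 0.0766). The values of *Gzma* and *Ngp* are no measure of size, since WT ILC2p had at most 7 counts of *Gzma* and WT LP ILC2s at most 1 count of *Ngp*, and they depend on the prior count. *Igj* was at 575, 0.726, 557 and 0.968 CPM in Tgfbr2-/- BM ILC2p, high in replicate 1 of each experiment and low in replicate 2. *Pbld1* was at 0.695, 0.311, 0.681 and 0.465 CPM there and at 108, 23.5, 67.6 and 63.0 CPM in WT BM ILC2p. *Il9r* was likewise under 1 CPM in every Tgfbr2-/- BM ILC2p library, so the sizes for *Pbld1* and *Il9r* depend in part on the prior count.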

How the results depend on the processing

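The counts of 191 and 77 genes moved by more than 1.5 times under several settings. DESeq2 called 350 and 274, limma 303 and 133 with a pseudocount of 1 and 293 and 129 with 0.1, and a fit with experiment nested in tissue 355 and 118. With 10 counts required in every library 115 genes were higher in LP ILC2s, and without the filter on low counts 46 were higher in BM ILC2p. With both libraries that stand apart left out, a setting chosen after seeing the data, 42 were higher in BM ILC2p. The pairs of 1 experiment against 1 gave 4 and 1, 80 and 16, 1 and 0, and 30 and 10, where the fewer libraries lower the number that can be called. With 1 library left out the counts ranged from 68 to 275 and from 27 to 95. Another scaling moved the median of all genes from -0.09 (TMM) to 0.04 (upper quartile), and the counts under the other scalings were within 1.5 times. No gene called in the 8-library fit that could be tested changed direction under any setting. This says little for genes chosen by their difference between the groups, nearly all of them without overlap. Of 94 named genes that were called, 48 were called in all 8 fits that left out 1 library. The interaction of tissue and genotype gave 174 genes, 1224 with DESeq2 and 57 to 497 with 1 library left out. The causes of these shifts were not tested.

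Replicate numbers were shared between tissues but are not taken to pair the libraries, since each tissue had its own experiments. The correlations of deviations within a number were small, at 0.029, 0.002, 0.021 and 0.016, although the LP library correlated best with its own number for 3 of the 4 numbers. A fit with the replicate number as a block called 44 and 20 genes. At nearly the same depth dropout differed, since the ILC2p library with 13.7% held 12276824 counts and the LP ILC2 library with 0.0804% held 12997489.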

Other observations

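Further genes were looked up after their values were seen. *Ptgs2*, the cyclooxygenase induced by activation, was at 128, 208, 118 and 186 CPM in LP ILC2s against 0.376, 0.611, 12.7 and 0.253 CPM in BM ILC2p (log2 fold change 5.50, standard error 1.32, adjusted p = 0.0835), opposite in direction to the lipoxygenase *Alox5*. *Vps37b*, a subunit of the ESCRT-I sorting complex, was at 3810, 5017, 2135 and 2135 CPM against 1.502, 184, 136 and 165 CPM (log2 fold change 4.75, standard error 1.04, adjusted p = 0.0575). *Deptor*, an inhibitor of mTOR, was at 625, 605, 623 and 780.4 CPM against 0.0939, 24.7, 0.0295 and 11.7 CPM (log2 fold change 6.17, standard error 1.54, adjusted p = 0.0993). All 3 were higher in every LP library, and each call was kept in 1 of the 8 fits that left out 1 library (highest adjusted p = 0.195, 0.148 and 0.191).

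*Lmna*, which encodes the nuclear lamins A and C, was at 886, 707, 395 and 374 CPM against 169, 100.2, 27.9 and 53.7 CPM (log2 fold change 2.75, standard error 0.55, adjusted p = 0.042). *Cdkn1a*, the cell cycle inhibitor p21, was at 1493, 1217, 418 and 403 CPM against 282, 63.7, 45.2 and 85.7 CPM (log2 fold change 2.89, standard error 0.67, adjusted p = 0.076), and in both genes LP experiment 1 lay above LP experiment 2. *Txnip*, an inhibitor of thioredoxin and of glucose uptake, was higher in BM ILC2p, at 284, 546, 664 and 859 CPM against 194, 269, 85.9 and 137 CPM (log2 fold change -1.78, standard error 0.42, adjusted p = 0.0787). The calls were kept in 5, 1 and 1 of the 8 fits (highest adjusted p = 0.143, 0.187 and 0.217).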
